A study of Rattus norvegicus with 3 samples.

Results

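The insulin-like growth factor binding proteins (IGFBPs) were measured in rat liver by 6 probes, each printed on 2 spots, for 5 genes out of the 5654 genes on the arrays. The members were the probes whose file symbol was Igfbp followed by a number from 1 to 6, or whose file description named the family. The rule found Igfbp1 (NM_013144), Igfbp2 (NM_013122), Igfbp3 (NM_012588), Igfbp5 (NM_012817), a probe without a symbol described as the 3′ untranslated region of Igfbp5 (AF139830), and the acid labile subunit Igfals (AF006203). Igfbp4 and Igfbp6 matched no spot and were not analysed here, so 4 of the 6 numbered members are described. All 12 spots gave a signal in both channels on every array, and no member was lost to the filter on dim spots.

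Liver RNA of male rats was hybridised in 2 colours on 3 spotted arrays. The spontaneously hypertensive rat (SHR), bred for high blood pressure, was compared with its normotensive relative, the Wistar Kyoto rat (WKY). SHR of 1 month was set against pooled WKY of 1 month, SHR of 3 months against pooled WKY of 3 months, and SHR of 1 month against SHR of 3 months, with no treatment. Each comparison was 1 array with no dye swap, and no label says how many animals each RNA came from.

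Insulin-like growth factors IGF1 and IGF2 circulate almost wholly bound to IGFBPs, which hold them away from the IGF1 receptor, prolong their life in plasma and deliver them to tissues. Hepatocytes secrete IGF1 and the acid labile subunit under growth hormone, and the subunit joins IGF1 and IGFBP3 or IGFBP5 in a large ternary complex. Hepatic IGFBP1 is turned off by insulin and turned on by fasting and glucocorticoids, IGFBP2 is abundant in fetal liver, and in rat liver IGFBP3 is made largely by non-parenchymal cells.

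Values below are log2 ratios of SHR over WKY, or of SHR of 3 months over SHR of 1 month, after background correction and loess normalization, each the mean ± SD of 2 spots. The 2 spots share 1 hybridisation, so that their SD, and the pooled SD over all probes of 0.0563, 0.0456 and 0.0524 on the 3 arrays, covers printing and scanning and not the difference between animals. A ratio is called beyond the spot error where it lies over 2 pooled SD from 0. No p-value was possible. A constant dye effect of a probe would appear on all 3 arrays and cannot be told apart from a difference between the RNAs, whereas it cancels in the difference between the strain ratios at 3 months and 1 month. On the SHR age array the second column is headed SHR of 3 months in the file, but the labels put on SHR of 1 month the dye that SHR carries on the strain arrays. Its direction is therefore not settled, and its values are given as the headers read, with the sign turned where a statement rests on it.

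The ratios of the family lay within the spread of all genes on each array. None of the 18 probe ratios reached 1.5-fold. Of all genes 2.62%, 2.08% and 7.47% did, for the strains at 1 month, the strains at 3 months and the SHR ages. With shares so low, 0 of 6 probes on an array does not set the family apart. The furthest member was 1.19-fold, 1.25-fold and 1.25-fold from 1. Of the 6 probes, 2 of which read the same gene, 4 were below 0 (lower in SHR) at 1 month and 5 at 3 months, where 52.5% and 53% of genes were. At 3 months 4 of 6 lay beyond the spot error on the low side and 0 on the high side, against 34.9% and 27.1% of genes, and at 1 month 3 and 0 of 6 against 30.6% and 24.2%. The median of the 6 probes was -0.11 at 1 month and -0.17 at 3 months, beside -0.01 and -0.01 over all genes. At 1 month the median was 0.01 with loess fitted per subgrid and 0.03 in the authors' deposited table, and at 3 months -0.04 and -0.03. Under both of these, Igfbp2 and Igfals no longer lay beyond the spot error at either age. At 3 months they stood at -0.00 and -0.03 per subgrid and at -0.00 and -0.02 in that table. The NM_012817 and AF139830 probes of Igfbp5 stayed beyond it at 3 months, at -0.20 and -0.34 per subgrid.

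**Figure D1:**
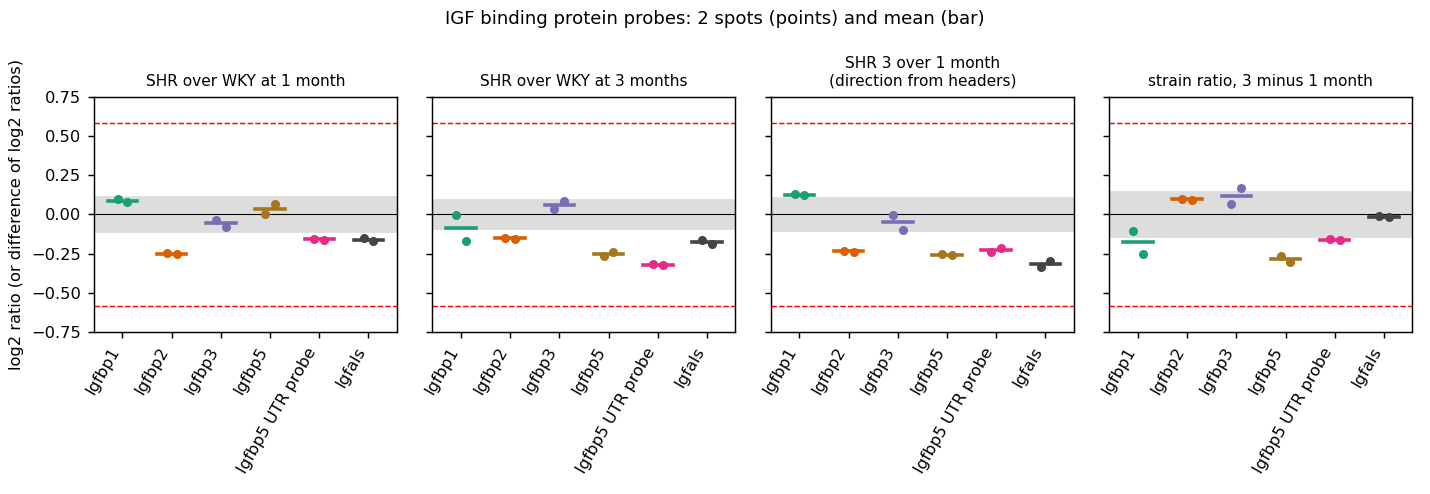
Log2 ratio of each of the 6 probes on each array, and the difference between the strain ratios (3 months minus 1 month), as 2 spots (points) and their mean (bar); the grey band is 2 pooled SD between spots either side of 0 and the dashed lines mark 1.5-fold. Every point lies inside the dashed lines, and at 3 months Igfbp2, both Igfbp5 probes and Igfals lie below the band (with median centring Igfbp2 and the NM_012817 probe of Igfbp5 turn positive at that age). With loess fitted per subgrid, Igfbp2 and Igfals were -0.00 and -0.03 at 3 months.

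Because the arrays bear on transcript levels, the sequence at the start of the genes is shown for the members on which the comparisons turn: Igfbp1, the classic insulin-controlled member, and the neighbours Igfbp2 and Igfbp5. Windows run from 250 bases before to 50 bases after the gene start, from RefSeq on GRCr8, where all 5 measured genes matched. Capitals mark matches, on either strand, to CAAAACA, the core of the insulin response element known from Igfbp1 promoters, and to GGGCGG, the GC box bound by Sp1. TATAAA and TTCNNNGAA, the palindrome of STAT5, were also searched on both strands. Igfbp1 lies at chr14:86261027-86261326 on the plus strand, Igfbp2 at chr9:81864561-81864860 on the plus strand and Igfbp5 at chr9:81914138-81914437 on the minus strand, each given 5′ to 3′ on its gene's strand.
Igfbp1: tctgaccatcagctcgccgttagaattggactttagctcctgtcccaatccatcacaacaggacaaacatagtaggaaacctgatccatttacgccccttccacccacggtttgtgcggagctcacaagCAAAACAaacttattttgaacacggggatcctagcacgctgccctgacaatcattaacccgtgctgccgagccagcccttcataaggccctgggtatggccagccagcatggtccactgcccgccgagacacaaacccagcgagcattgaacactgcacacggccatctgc
Igfbp2: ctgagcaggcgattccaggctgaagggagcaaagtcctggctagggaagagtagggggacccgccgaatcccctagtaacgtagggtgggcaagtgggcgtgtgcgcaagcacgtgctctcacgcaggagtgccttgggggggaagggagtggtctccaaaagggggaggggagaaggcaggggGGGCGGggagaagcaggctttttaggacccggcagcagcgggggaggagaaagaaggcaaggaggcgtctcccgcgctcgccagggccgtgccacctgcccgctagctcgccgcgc
Igfbp5: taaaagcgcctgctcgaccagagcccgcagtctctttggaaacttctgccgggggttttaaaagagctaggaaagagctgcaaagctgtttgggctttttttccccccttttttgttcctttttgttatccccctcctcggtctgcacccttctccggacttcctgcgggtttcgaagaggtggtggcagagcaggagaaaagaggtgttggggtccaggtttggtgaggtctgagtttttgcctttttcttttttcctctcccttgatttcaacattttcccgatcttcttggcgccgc
The CAAAACA of Igfbp1 spans bases -121 to -115 from the start and is a match found in 6.28% of the 33469 rat windows of this length. The GGGCGG of Igfbp2 spans -66 to -61, in a window that is 66.7% G and C, and occurs in 33.1% of windows. Neither TATAAA, in 14.2% of windows, nor TTCNNNGAA, in 8.87%, occurs in these letters in the windows of the 5 measured genes. Those of Igfbp3 and Igfals held none of the 4 motifs. The window of Igfbp5 is 50.7% G and C, close to the median of 51.7%, and those of Igfbp3 and Igfals are 71.7% and 57.7%.

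In genome order Igfbp1 and Igfbp3 lie side by side, as do Igfbp2 and Igfbp5, each pair on opposite strands. Igfbp1 and Igfbp3 stood on opposite sides of 0 on each of the 3 arrays, though inside the spot error except for Igfbp1 on the SHR age array. Under median centring they lay on the same side on all 3 arrays. Igfbp2 and the AF139830 probe of its neighbour Igfbp5 lay beyond the spot error on the low side on all 3 arrays, with the SHR age array as the headers read. The NM_012817 probe of Igfbp5 lay inside the spot error at 1 month and below it on the other 2 arrays. With median centring Igfbp2 and NM_012817 were positive on all 3 arrays. With loess fitted per subgrid Igfbp2 was -0.10 at 1 month, -0.00 at 3 months and -0.16 on the SHR age array.

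Igfbp1, which restrains IGF action on the time scale of meals, was a modest signal. Its spots read 2102 and 2234 in WKY against 1440 and 1522 in SHR at 1 month, as mean raw intensities of the first and second channel. At 3 months they read 2063 and 2207 in WKY against 1240 and 1153 in SHR, and on the SHR age array 1335 and 1578 at 1 month against 826 and 993 at 3 months. The second channel was the dimmer over the whole array, and normalization removes that. The strain ratio was 0.09 ± 0.01 (SD, 2 spots) at 1 month and -0.09 ± 0.12 at 3 months, where the spots read -0.01 and -0.17 and so did not agree. Both means lie inside the spot error, and at 1 month median centring gave -0.04. The difference between ages was -0.18, or -2.44 in units of its pooled SD, and ran from -0.25 to -0.08 over the alternatives. On the SHR age array the ratio was 0.13 ± 0.00, the single member that was higher at 3 months as the headers read; it was -0.03 with median centring, and the sign turns with the array.

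The 17 measured genes of an 18-gene list that share hormonal control with Igfbp1 give its setting. Their median strain log2 ratio was 0.09 at 1 month and 0.10 at 3 months, beside -0.01 and -0.01 over all genes. Beyond the spot error lay 6 on the high and 5 on the low side at 1 month (24.2% and 30.6% of genes), and 9 and 3 at 3 months (27.1% and 34.9% of genes). Foxa3, a liver pioneer factor, had 0.44 and 0.42 at the 2 ages, and Nr3c1, the glucocorticoid receptor, 0.25 and 0.35. Tat, the glucocorticoid-induced tyrosine aminotransferase, had 0.16 and 0.38. Of the related transcription factors, Cebpb had 0.18 and 0.33 and Cebpa, which maintains the hepatocyte state, -0.25 and -0.27. Foxa2 had -0.23 and -0.08. Of the 17 genes 7 and 6 were below 0 at the 2 ages, where 52.5% and 53% of genes were. The list ranged from -0.25 to 0.44 at 1 month and from -0.32 to 0.42 at 3 months. No gene of the list reached 1.5-fold on any array.

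Igfbp2, a binding protein of growing and fasted liver, was among the brighter spots. At 1 month its spots read 29638 and 30980 in WKY against 27270 and 29192 in SHR, at 3 months 25290 and 26424 against 22776 and 24267, and on the SHR age array 22823 and 23799 at 1 month against 18616 and 19816 at 3 months. The first channel was the higher on each array, without overlap, as it was for most of the array. The median log2 ratio over gene spots before normalization was -0.51, -0.36 and -0.65. The raw separation is therefore no measure of the strain or age difference. The strain log2 ratio was -0.25 ± 0.00 at 1 month and -0.15 ± 0.01 at 3 months, or -4.44 and -3.36 in units of the pooled SD, 1.19-fold and 1.11-fold lower in SHR. This direction depends on removing the trend of ratio with intensity: with median centring, which leaves that trend in, the ratios were 0.40 and 0.23. At 1 month 14.1% of genes were lower. The difference between ages was 0.10, inside its spot error of 2 pooled SD (0.145), and -0.17 with median centring. The authors' deposited table gave -0.10 and -0.00 at the 2 ages.

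Igfbp3, the main carrier of plasma IGF1, was the dimmest member. Its spots read 866 and 839 in WKY against 476 and 442 in SHR at 1 month, 1109 and 1013 against 634 and 613 at 3 months, and 777 and 734 against 412 and 360 on the SHR age array. Raw intensity was 7.07 to 18.5 times local background. The log2 ratios were -0.06 ± 0.03, 0.06 ± 0.04 and -0.05 ± 0.07, all inside the spot error. No strain or age difference was measurable for Igfbp3, and its sign was not stable: the authors' deposited table gave 0.06, 0.34 and 0.23, and median centring -0.38, -0.05 and -0.33.

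**Figure D2:**
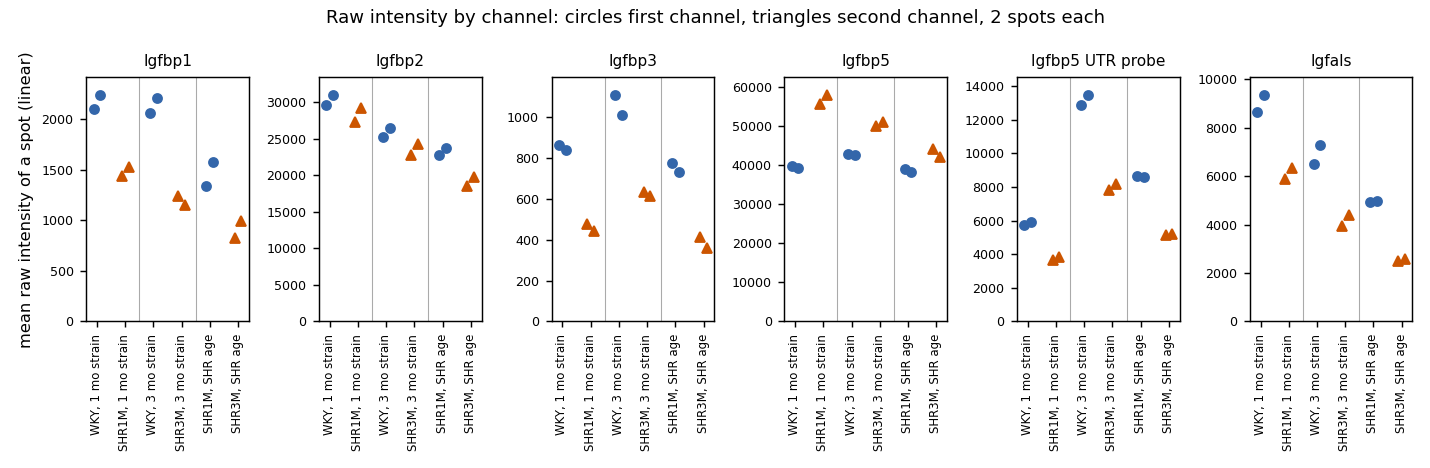
Mean raw intensity (linear, arbitrary units) of the 2 spots of each probe in the 6 hybridised channels; circles are the first and triangles the second channel, and each panel has its own scale. The NM_012817 probe of Igfbp5 is the single panel in which triangles stand above circles, and the AF139830 probe goes from 5718 and 5944 to 12889 and 13459 in WKY between the strain arrays.

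Igfbp5, a binding protein that sits in matrix and is made in liver chiefly by mesenchymal cells, was read by 2 probes that differ in brightness. The NM_012817 probe lay near the top of the scale: its spots read 39895 and 39403 in WKY against 55704 and 57990 in SHR at 1 month, 42820 and 42595 against 50180 and 51055 at 3 months, and 39137 and 38197 against 44173 and 42219 on the SHR age array. At most 0.439% of gene spots were brighter in the first channel, and in that channel the pixels of its own spots varied by 0.531% to 4.71%, where the median spot on an array varied by 17.1% to 27.0%. Whether such a spot still answers in proportion to its RNA was not tested. Its strain log2 ratio was 0.03 ± 0.05 at 1 month and -0.25 ± 0.02 at 3 months, and -0.26 ± 0.00 on the SHR age array. With median centring the 3 values were 1.03, 0.61 and 0.81, the only member values past 1.5-fold under any alternative.

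The AF139830 probe was read in the middle of the scale. Its spots read 5718 and 5944 in WKY against 3665 and 3807 in SHR at 1 month, 12889 and 13459 against 7812 and 8159 at 3 months, and 8669 and 8602 against 5143 and 5187 on the SHR age array. The strain log2 ratio was -0.16 ± 0.01 at 1 month and -0.32 ± 0.01 at 3 months, or -2.81 and -7.01 in units of the pooled SD. At 3 months, 8.87% of genes were lower. Its direction held at both ages under the 9 alternatives that could move it, running from -0.16 to -0.13 at 1 month and from -0.34 to -0.31 at 3 months. Between the SHR ages it was -0.23 ± 0.02, from -0.24 to -0.09 over the alternatives, or 0.23 with the sign turned.

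Both probes of Igfbp5 had a lower strain ratio at 3 months than at 1 month. The difference was -0.29 ± 0.03 for NM_012817 and -0.16 ± 0.00 for AF139830, or -3.94 and -2.23 in units of the pooled SD of such a difference (0.0725). Of all genes 8.24% and 19.4% had a lower difference. The direction held for both probes under the same 9 alternatives, from -0.42 to -0.25 and from -0.21 to -0.16. Neither reached 1.5-fold, which 2.83% of genes did. Over the family 4 of 6 differences were below 0, against 48.2% of genes, and 3 lay beyond the spot error on the low side and 0 on the high side, against 21.5% and 23.6%; the third was Igfbp1. The median of the 6 was -0.09. It moved when a single probe was left out, to -0.02 without NM_012817 and to -0.16 without Igfals.

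Between the strain arrays the AF139830 probe read brighter at 3 months in both channels. Relative to the median probe, its log2 intensity without background correction was higher by 1.16 in the WKY channel and by 1.11 in the SHR channel. This was a larger difference than that of 99.7% and 99.1% of probes, where the SD over 5690 probes was 0.323 and 0.424. The NM_012817 probe changed by 0.10 and -0.15 in the same channels. These are levels compared across 2 hybridisations with no normalization between them. The array that set both SHR ages together gave -0.23 for AF139830 as the headers read and 0.23 with the sign turned, both far from 1.11. Array and age cannot be told apart in these intensities.

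The AF139830 probe of Igfbp5 was below 0 on all 3 arrays as the headers read, as 31.6% of genes were. Of 15 genes of a stellate cell and matrix list, 13 were below 0 on each array, where 52.5%, 53% and 51.2% of genes were. The list's medians were -0.20, -0.20 and -0.28 (the age array's values change sign if it is turned). Beyond the spot error on the low side lay 9, 11 and 11, against 30.6%, 34.9% and 37.5% of genes. On the high side lay 2, 1 and 2, against 24.2%, 27.1% and 34% of genes. The list ranged from -0.46 to 0.18 at 1 month, -0.49 to 0.40 at 3 months and -0.60 to 0.58 on the SHR age array. This list and the other gene lists were described under the reported processing alone. They were not recomputed with loess per subgrid, which moved the IGFBP medians. Des, the intermediate filament of stellate cells, had -0.46 and -0.41 at the 2 ages, Col1a1, a chain of type I collagen, had -0.28 and -0.36, and Rgs5, a pericyte gene, -0.05 and 0.40. The list's median difference between the ages was 0.03, while each Igfbp5 probe had a negative one. The part of these cells in the Igfbp5 ratios was not tested, and fewer cells of a type and less RNA per cell cannot be told apart in whole liver. Medians below 0 were seen for other cell types too. The lymphocyte and NK cell markers (10, 9 and 10 measured) had medians of -0.16, -0.09 and -0.20. Of these markers 6, 4 and 7 were low beyond the spot error, against 30.6%, 34.9% and 37.5% of genes. On the high side lay 1, 0 and 2, against 24.2%, 27.1% and 34% of genes. The 4 Kupffer cell and macrophage markers had medians of -0.18, -0.17 and -0.05, and the 3 bile duct markers -0.16, -0.18 and -0.25. Medians were 0.09, 0.08 and 0.07 for 3 endothelial markers and -0.04, -0.11 and 0.03 for 5 red cell markers. The 14 measured hepatocyte markers had medians of 0.01, -0.00 and -0.13, with 7, 7 and 4 of 14 above 0. Not all of these read brightly: 6, 7 and 7 of the 14 stood above the median gene spot in the first channel of the 3 arrays. Alb, serum albumin, had -0.15 at 1 month and -1.01 at 3 months, where it was the lowest of the list.

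Igfals, which completes the ternary complex, was a middle signal. Its spots read 8636 and 9350 in WKY against 5877 and 6356 in SHR at 1 month, 6520 and 7308 against 3931 and 4391 at 3 months, and 4939 and 4975 against 2495 and 2591 on the SHR age array. Pixels varied by 50.6% to 52.3% within its spots on the 3-month strain array. The strain log2 ratio was -0.16 ± 0.01 at 1 month and -0.18 ± 0.02 at 3 months, or -2.87 and -3.90 in units of the pooled SD. The authors' deposited table gave 0.03 and -0.02, so the direction at 1 month is not firm. The difference between ages was -0.02, inside the spot error. On the SHR age array Igfals was the furthest member, at -0.32 ± 0.03, or 0.32 with the sign turned, and ran from -0.34 to -0.24 over the other alternatives as the headers read.

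**Figure D3:**
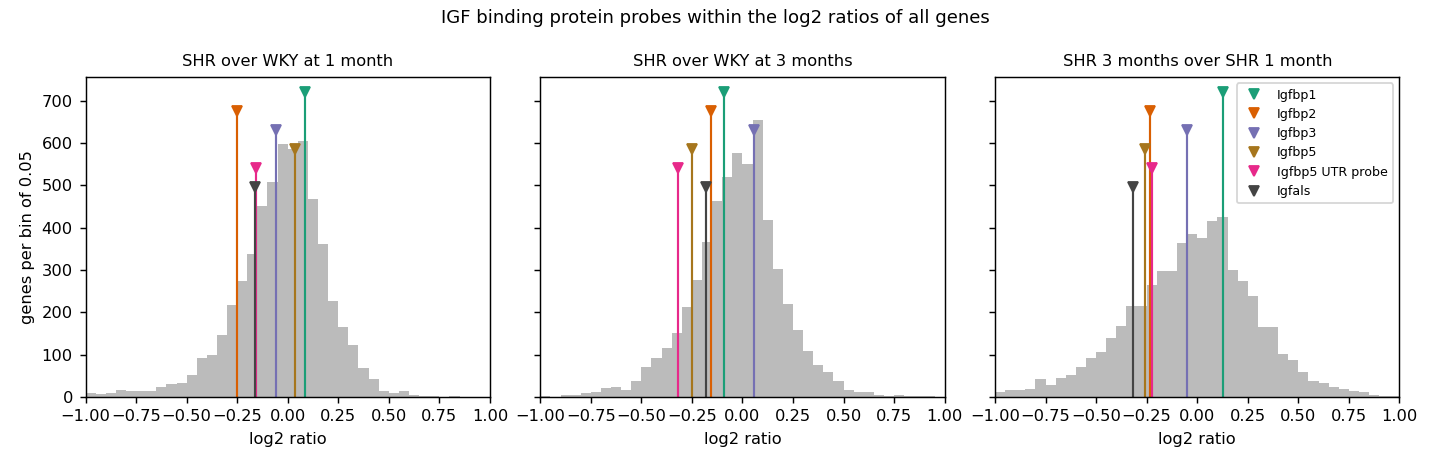
Histogram of the log2 ratios of all genes on each array (genes per bin of 0.05), with the 6 IGFBP probes as coloured lines. The probes lie within the body of the distribution, of which 5% of genes lay below -0.42, -0.41 and -0.60; with median centring Igfbp2 and the NM_012817 probe of Igfbp5 stand to the right of 0.

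Igfbp2, AF139830 and Igfals were below 0 on all 3 arrays as the headers read, a pattern that 31.6% of genes showed. With the sign turned these probes and those genes were above 0 on the age array, and 6.04% of genes were below 0 on all 3. Between the SHR ages 5 of 6 probes were below 0 as the headers read, where 51.2% of genes were, and 4 lay beyond the spot error on the low side and 1 on the high side, where 37.5% and 34% of genes did. The median was -0.23, or 0.23 with the sign turned.

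Levels in the 4 conditions were placed on 1 scale by adding the array ratios, with WKY of 1 month at 0. As the headers read, Igfbp2 stood at -0.25 in SHR of 1 month, -0.33 in WKY of 3 months and -0.48 in SHR of 3 months, each with a propagated spot error of 0.0563, 0.0894 and 0.0769. Igfals ran in the same order, at -0.16, -0.30 and -0.48. AF139830 stood at -0.16, -0.06 and -0.38, Igfbp3 at -0.06, -0.17 and -0.11, Igfbp1 at 0.09, 0.30 and 0.21, and NM_012817 at 0.03, 0.03 and -0.22.

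Of the 18 steps between neighbours in these orders, 7 exceeded 2 errors, and 8 of 18 did with the sign of the age array turned. For Igfbp2 and Igfals, SHR of 1 month and WKY of 3 months did not differ by that much, and for Igfbp3 no step did. For Igfbp1 only the step from SHR of 1 month to SHR of 3 months did, for AF139830 only that from SHR of 3 months to SHR of 1 month, and for NM_012817 only that from SHR of 3 months to WKY of 1 month. With the sign turned, Igfbp1 and Igfbp3 had no such step and for Igfals all 3 steps exceeded 2 errors. The WKY level of 3 months then became the highest of the 4 for Igfbp2 (0.14), AF139830 (0.39), NM_012817 (0.54) and Igfals (0.33), so that the age part of each order is not settled. Any dye effect stays in such sums. Under median centring, Igfbp2 at both ages, Igfbp1 at 1 month, and Igfbp3 and NM_012817 at 3 months would enter with the opposite strain sign.

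**Figure D4:**
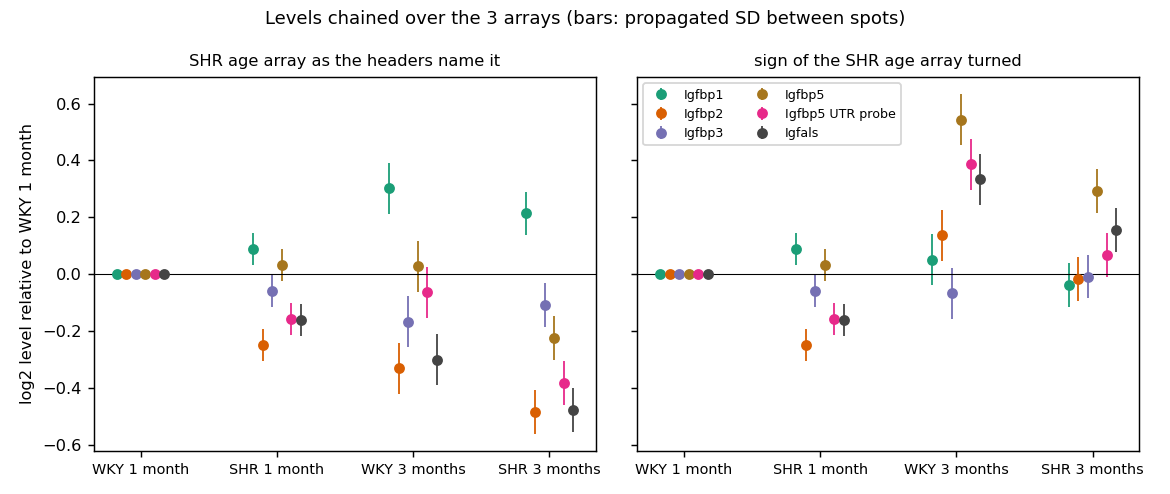
Log2 level of each probe in the 4 conditions relative to WKY of 1 month, summed over the 3 arrays, with the SHR age array as the headers name it (left) and turned (right); bars are the propagated SD between spots. In the left panel Igfbp2 and Igfals fall furthest, to -0.48 in SHR of 3 months, and in the right panel the WKY points of 3 months stand highest for 4 of 6 probes.

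Of the ligands that IGFBPs hold, Igf1, the growth hormone-driven hepatic hormone, had log2 ratios of -0.21, -0.17 and -0.54 on the 3 arrays. Igf2, its fetal relative, had 0.38, 0.11 and 0.28. For both genes the value on the SHR age array is as the headers read and changes sign if that array is turned. Of the 6 ligands and receptors, 2 were beyond the spot error on the low side and 2 on the high side at 1 month, against 30.6% and 24.2% of genes, and 3 and 2 at 3 months, against 34.9% and 27.1%.

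Igf1r, the signalling receptor, had strain ratios of -0.28 and -0.19, and Igf2r, which clears IGF2, had -0.10 and 0.11. Insrr, a relative of the insulin receptor, had 0.18 and -0.24. Insr, the insulin receptor, had -0.00 and 0.08 at the 2 ages. On the SHR age array it had 0.48 as the headers read, with the opposite sign if that array is turned. None of the 6 reached 1.5-fold on any array. In the growth hormone axis, Cish, an inhibitor of STAT5 signalling, had 0.84 and 1.18 and Jak2, the kinase of the growth hormone receptor, -0.18 and -0.71. Ghr, that receptor, had 0.18 and 0.12, Stat5a 0.30 and 0.22, Stat5b -0.11 and 0.02, and the inhibitors Socs1 -0.02 and 0.05, Socs2 0.11 and 0.04 and Socs3 0.12 and -0.18.

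Proteases and partners that free or hold IGFs were measured for 12 of 18 listed genes, Igfals included. Beyond the spot error lay 3 on the low and 2 on the high side at 1 month, against 30.6% and 24.2% of genes, and 6 and 3 at 3 months, against 34.9% and 27.1%. Plg, the precursor of plasmin, had -0.03 at 1 month and -0.35 at 3 months, and Adamts1, a matrix protease, 0.10 and -0.39. Mmp9, a gelatinase, had -0.33 and -0.56. F2, prothrombin, had 0.18 and 0.15, and Mmp3, stromelysin, 0.16 and 0.30. The proteases Htra1 (-0.03 and -0.14), Ctsd (-0.09 and 0.23), Mmp2 (-0.18 and -0.06) and Mmp7 (-0.05 and -0.05) were measured too. The stanniocalcins, which inhibit an IGFBP protease, had 0.05 and -0.18 (Stc1) and 0.04 and 0.03 (Stc2). On the SHR age array Mmp9 and Plg passed 1.5-fold, at -0.97 and -0.61 as the headers read, where 7.47% of all genes passed it. Both have the opposite sign if that array is turned.

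The IGFBP-related proteins carry a similar amino-terminal domain and bind IGFs weakly if at all, and 6 of 9 were measured. Ccn1, an immediate-early matrix protein, had 0.06 at 1 month and 0.43 at 3 months, and Ccn2, connective tissue growth factor, -0.17 and 0.03. Ccn4, a Wnt target, had -0.31 and -0.33, Ccn3 -0.04 and 0.15, Ccn5 0.21 and -0.25, and Esm1, an endothelial proteoglycan, 0.09 and 0.11. None passed 1.5-fold between the strains. No listed IGF2 mRNA-binding protein was measured. Of 25 measured genes of insulin and IGF receptor signalling, the median was 0.03 and -0.04, with 4 low and 6 high beyond the spot error at 1 month (30.6% and 24.2% of genes) and 10 and 9 at 3 months (34.9% and 27.1%). Grb2, an adaptor of receptor kinases, had -0.07 and 0.33 and Map2k2, a kinase of the MAP kinase cascade, -0.04 and -0.34.

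Among 9 measured binding partners of IGFBPs, Vtn, vitronectin, which holds IGFBP5 in matrix, had -0.09 at 1 month and 0.30 at 3 months. Spp1, osteopontin, had -0.16 and -0.18. Tf, transferrin, a partner of IGFBP3, had 0.03 and -0.29.

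The genes with the pattern most like each member were taken by Euclidean distance over the 3 ratios, among 429 to 978 named genes of like brightness. For AF139830 these were Sv2c (distance 0.0520), Akap12 and Cyp3a18, and for NM_012817 Xrcc6 (0.0645), Rab7a and Rab6a. Igfbp2 lay nearest to Jdp1 (0.0504), Asic5 and Hspa2, and Igfals to Prpmp5 (0.0425), Hdc and Dmd. Igfbp1 lay nearest to Dmgdh (0.0331), Ghsr and Pak1, and Igfbp3 to Exoc6 (0.0228), Rock2 and Ppara. With 3 arrays and so many candidates, distances of this size describe likeness in these values and no more.

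**Figure D5:**
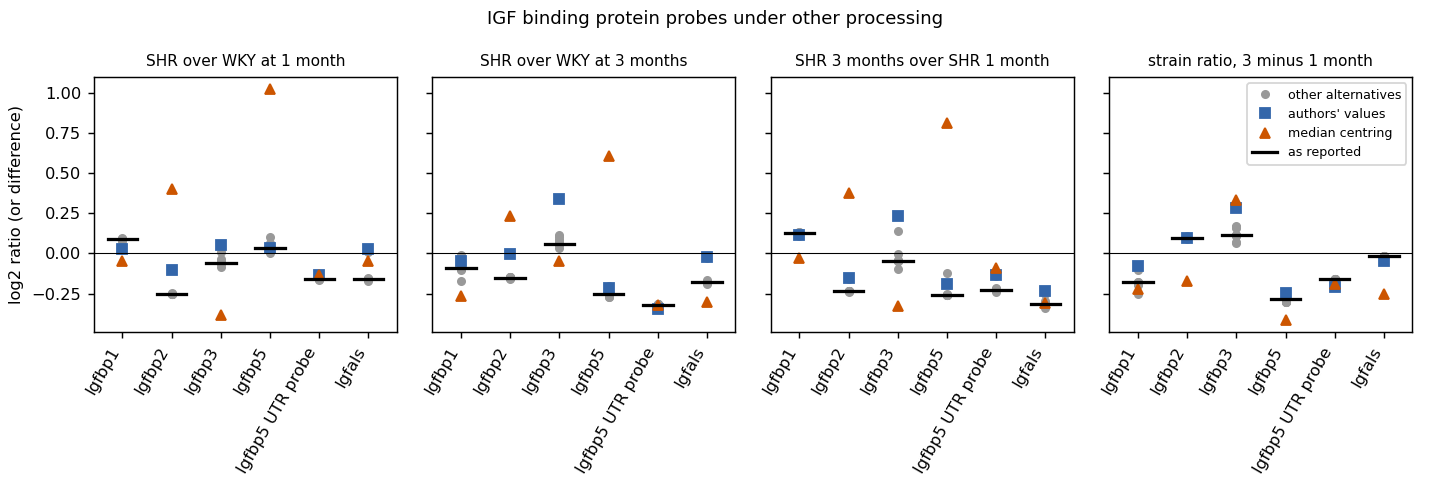
Log2 ratio of each probe on each array, and the difference of the strain ratios, as reported (bar), with median centring (triangles), in the authors' deposited table (squares) and under the other alternatives (circles). Triangles stand apart for Igfbp2 and the NM_012817 probe of Igfbp5, reaching 1.03, whereas the AF139830 probe stays between -0.34 and -0.09 on the 3 arrays.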

How the data were processed

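Raw and background intensity per spot and channel were deposited by the authors, with spot and background SDs. No header or label names the quantifying software. The authors also deposited log2 values of unstated direction. Compared with the scanner intensities, these matched log2 of the second over the first channel, with median absolute differences of 0.00196, 0.00383 and 0.00442, and their medians were 0.0028, 0.0225 and 0.0202. They were used as an alternative.

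Intensities were background-corrected with normexp (offset 50) and normalized by loess (span 0.3) within each array in limma 3.58.1 and R 4.3.3. Median log2 ratios before this step were -0.51, -0.36 and -0.65. Loess removes the trend of ratio with intensity, so values are relative to gene spots of like brightness. Median raw intensity was 1448 to 3460, and the number of arrays limits the precision. Spots were kept where foreground exceeded background by 2 SD in at least 1 channel (11135 to 11286 of 11394 gene spots passed in both). The 2 spots of a probe were averaged, and the brightest probe stood for a gene. On the 3-month strain array 985 spots had a bright local background.

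Probes were named from RefSeq by accession (2728), symbol (1050) or synonym (521), by the file (156) or not at all (1235). Other steps ran in Python 3.11.15, numpy 2.4.6, pandas 2.3.3 and matplotlib 3.10.9. The scripts were tested on simulated data. Named genes were all probes of the rule, all measured genes of the IGF and growth hormone lists, up to 4 members per other list with the largest ratio per array, the 3 nearest patterns and genome neighbours. Members and lists were chosen with earlier results of these data known.

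Alternatives covered background correction, normalization, the presence filter, single spots and bright background.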

Additional observations from a re-analysis of the deposited data

Results flagged for a closer look

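The lists of IGF ligands and receptors, proteases, IGFBP-related proteins and the growth hormone axis were searched for strain ratios that changed side. For 3 of their genes the strain log2 ratio lay beyond the spot error on opposite sides at the 2 ages. Ccn5, a matricellular relative of the IGFBPs, had 0.21 at 1 month and -0.25 at 3 months. Insrr, a receptor of the insulin receptor family, had 0.18 and -0.24. Socs3, a feedback inhibitor of cytokine signalling, had 0.12 and -0.18. Genes of the other lists changed side too, among them Ahsg (0.23 and -0.27) and Rps6kb1 (-0.18 and 0.09). The share of all genes that changed side in this way was not counted. Each age is 1 array, and the difference between ages was not tested. No IGFBP probe did so.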

How the results depend on the processing

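Of 216 member values under the 9 alternatives that could move a single probe, 201 kept their sign, 52 moved by more than the pooled SD between spots and 3 passed 1.5-fold. Turning the SHR age array changes the sign of every value on it. The median of the 6 probes moved as follows. At 1 month (-0.11) it was -0.0459 with median centring, 0.00964 with loess per subgrid and 0.0282 in the authors' deposited table. At 3 months (-0.17) it was -0.0450 per subgrid and -0.0347 in that table. On the SHR age array (-0.23) it was -0.0568, -0.131 and -0.144 in the same order, and 0.23 with the sign turned. For the difference between ages (-0.09) it was -0.21 with median centring. Leaving out a probe, an alternative chosen after seeing the data, moved that difference to -0.16 without Igfals and to -0.0164 without the NM_012817 probe of Igfbp5. The count of genes at least 1.5-fold apart was 148 at 1 month (1012 with median centring, 269 in the authors' table) and 117 at 3 months (299 with no background correction, 395 with subtraction, 566 with median centring, 385 in the authors' table, 241 with normexp fitted without bright background). It was 422 on the SHR age array (1443 with median centring) and 159 for the difference (241 with subtraction, 591 with median centring). The share of these that were lower changed from 92.6% to 41.2% at 1 month, from 71.8% to 23.3% at 3 months and from 72.3% to 39.3% on the SHR age array with median centring, to 75.6% at 1 month with loess per subgrid, and to 61.3% and 59.5% on the strain arrays in the authors' table. For the difference 39.6% were lower, against 81.0% without background correction, 72.6% with subtraction, 81.1% with normexp fitted without bright background, 56.5% in the authors' table and 29.8% with median centring. The cause was not tested. No paired analysis was possible because each comparison is 1 array. Local background limits dim probes, of which Igfbp3 is the dimmest member.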
